A study of Mus musculus with 10 samples.

Results

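The genes described here encode innate immune receptors and markers of myeloid cell activation: the C-type lectin receptors Clec4e, Clec4d, Clec4n and Clec7a, the Toll-like receptors Tlr2 and Tlr4, the co-receptor Cd14, the chaperone Unc93b1, and the activation markers Cd83 and Cd86. They are 10 of the 18193 genes that have a probe set with a single gene symbol, and they are measured by 16 such probe sets. They were chosen by name as a functional family, with the difference between the groups already known. Their differences between the groups are therefore given as a description, with no test. All 10 genes passed the filter on dim signals, as did 12736 genes in all.

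Liver RNA was measured on Affymetrix arrays, 1 mouse labelled ApoE-/- per array. The 5 control mice (controls 11 to 15) had been infected with an adenovirus carrying GFP, a fluorescent protein used as control cargo, and the other 5 mice (dn-cJun 16 to 20) with an adenovirus carrying a dominant negative form of cJun, which pairs with Fos proteins in the transcription factor AP-1. Every mouse is labelled ApoE-/- and had an adenoviral infection, and no uninfected liver was analysed here. Strain background, sex, age, virus dose and time after infection are not given in the sources used here, nor is the share of liver cells that took up the virus.

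Some arrays stood apart or went against their labels. Apoe signal was 15.31 to 15.82 on the arrays labelled dn-cJun and 9.42 to 10.94 on the controls. The log2(intensity + 16) scale is used for this and every level below. The groups thus also differ in a signal that the genotype label describes as lost. What goes with the Apoe signal and what goes with the cargo cannot be told apart in any difference between the groups. Xist, transcribed from the silenced X chromosome, was 13.63 and 13.71 in controls 14 and 15 and at most 6.72 in the other 8 arrays. The Y-linked gene Eif2s3y was 4.08 to 5.22 in those same controls and at least 10.58 in the other 8 arrays. No array labelled dn-cJun showed this pattern of sex-linked genes, so it is not balanced between the groups. Jun, the gene from which the viral cargo derives, had overlapping groups, at 10.18 to 10.73 (controls) and 9.84 to 10.82 (labelled dn-cJun), with a difference of -0.07 (SE 0.17). Whether its probe set covers the cargo is not known here. The results are therefore given with and without controls 14 and 15, and the label is written as "labelled dn-cJun". The 12 hepatocyte markers, among them Alb and Ttr, were all measured, with a summed intensity of 509117 to 536647 over the controls and 529619 to 559991 over arrays labelled dn-cJun.

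Innate receptors read microbial and damage-derived molecules on macrophages, dendritic cells, monocytes and neutrophils. Clec4e (Mincle) binds mycobacterial glycolipids and a protein released by dying cells, and it signals through the Fc receptor gamma chain, the kinase Syk and the adaptor Card9. Toll-like receptors signal mainly through the adaptor Myd88 towards NF-kB and AP-1. In the liver these receptors are carried mostly by Kupffer cells, the resident macrophages, and by infiltrating myeloid cells, and Tlr4 also by endothelial and stellate cells. Activated dendritic cells, macrophages and B cells raise Cd83 and Cd86 on their surface.

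As a group, the 10 genes had lower signals in the arrays labelled dn-cJun. All 10 log2 differences (labelled dn-cJun minus control) were below 0, where 49.7% of all genes tested were. Their median was -0.56, beside 0.0015 over all 12736 genes. On the deposited values without quantile normalization all genes shifted to a median of -0.19, and the 10 genes to -0.76, again all below 0. In the limma fit over all genes, Clec4e, Cd83 and Unc93b1 passed an adjusted p of 0.05 as lower, which is 3 of 10, where 0.432% of all genes passed as lower. In the same 3 genes the groups did not overlap, as was so in 2.13% of all genes. Nothing is read from these counts, because the genes were chosen with this comparison in view. Without controls 14 and 15, 8 of 10 differences were below 0 (48.8% of all genes), the median was -0.32 and none of the 10 passed in limma (0.306% of all genes passed as lower), with 3 of 10 at an unadjusted p under 0.05, beside 13.7% of all genes. The groups then still did not overlap in Clec4e, Cd83 and Unc93b1, beside 4.85% of all genes.

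**Figure D1:**
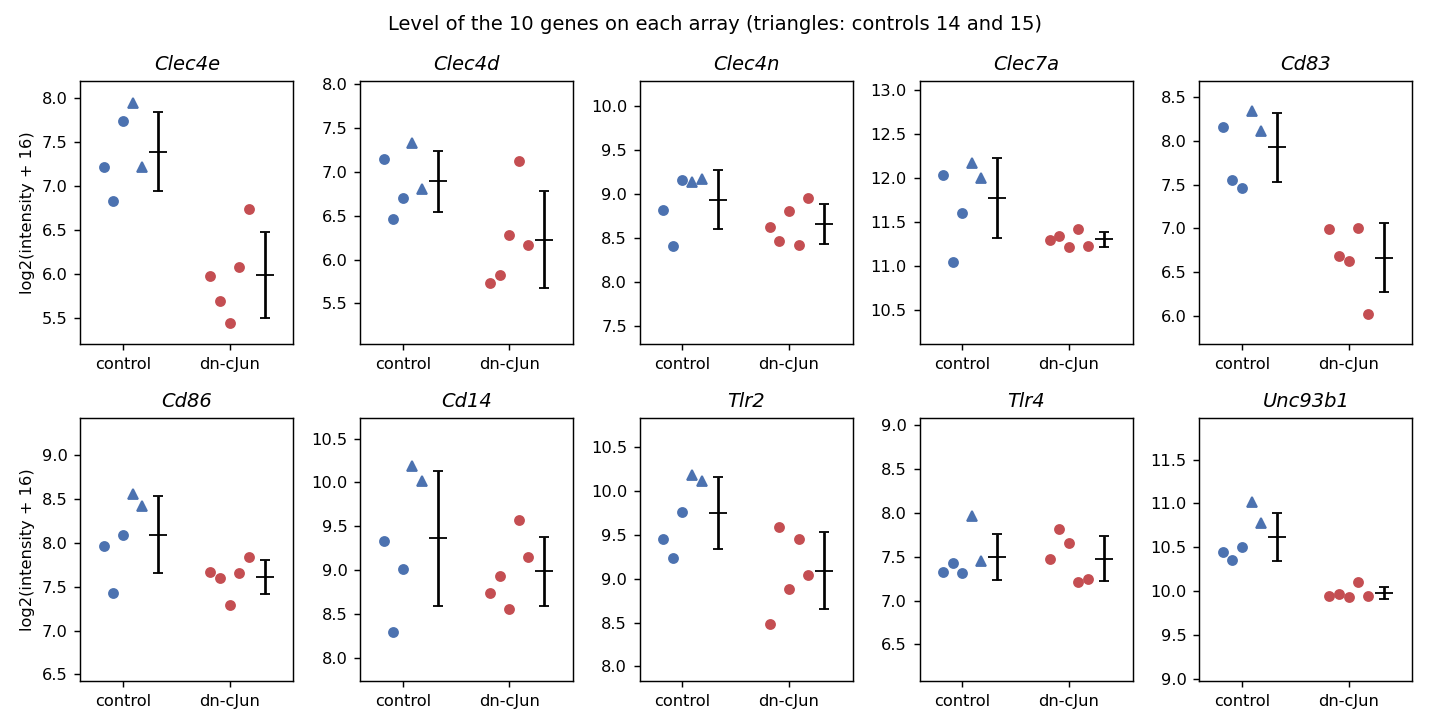
Each panel plots log2(intensity + 16) of 1 gene on each array, controls in blue and arrays labelled dn-cJun in red, with the mean and SD (n = 5 per group) as a bar beside the points; all panels span the same number of log2 units. Clec4e, Cd83 and Unc93b1 show separate groups, and controls 14 and 15 (triangles) are the highest controls for Cd14, Cd86, Tlr2, Tlr4 and Unc93b1.

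Clec4e, read by its brighter probe set, had the largest difference of the 10 genes, ahead of Cd83. With probe sets averaged the order turned (Clec4e -0.99, Cd83 -1.26), and with a constant of 64 in place of 16 they were nearly equal (-0.949 and -0.955). The brighter probe set read 7.22, 6.84, 7.74, 7.95 and 7.22 in controls 11 to 15, and 5.98, 5.70, 5.44, 6.08 and 6.75 in dn-cJun 16 to 20. Every array labelled dn-cJun was below every control, with a narrow gap between dn-cJun 20 and control 12. The means were 7.39 ± 0.45 (SD, n = 5) and 5.99 ± 0.49 (SD, n = 5), a log2 difference of -1.40 with a standard error of 0.29, or a 2.65-fold lower signal on this scale. In deposited intensity, controls lay between 97.2 and 231 and the arrays labelled dn-cJun between 25.5 and 95.2. Without controls 14 and 15 the difference was -1.26 (SE 0.35).

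The second Clec4e probe set was dimmer and showed a smaller difference. It read 5.83 to 6.50 over the controls (median 6.30) and 5.16 to 6.07 over arrays labelled dn-cJun (median 5.85), with overlapping groups and a log2 difference of -0.58 (SE 0.30). The files hold no detection calls, so 44 probe sets of olfactory receptor genes, which liver is not known to transcribe, served as a description of dim signal. Their 95th percentile was 6.72, and probe sets differ in sensitivity, so this level is no detection limit. The brighter Clec4e probe set was above it in all 5 controls and below it in 4 of the 5 arrays labelled dn-cJun. The dimmer one was below it on all 10 arrays. A difference that ends at such a level may be understated by the added constant of 16.

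Clec4d and Clec4n, which lie beside Clec4e in the Dectin-2 gene cluster, differed less. Clec4d, a receptor that pairs with Clec4e and shares its signalling chain, read 7.14, 6.47, 6.70, 7.33 and 6.81 in controls 11 to 15 and 5.74, 5.82, 6.29, 7.13 and 6.17 in dn-cJun 16 to 20. Of the 5 arrays labelled dn-cJun, 4 were below every control, and dn-cJun 19 was among the high controls. The difference was -0.66 (SE 0.29), and -0.54 (SE 0.36) without controls 14 and 15. Clec4d was below the olfactory receptor level in 2 of the 5 controls and in 4 of the 5 arrays labelled dn-cJun. Clec4n (Dectin-2), a receptor for fungal mannans, overlapped between the groups on both of its probe sets. The brighter read 8.40 to 9.17 over the controls (median 9.13) and 8.42 to 8.96 over arrays labelled dn-cJun (median 8.63), a difference of -0.28 (SE 0.16). For the dimmer the values were 7.65 to 8.49 (median 8.16) and 7.12 to 7.90 (median 7.72), a difference of -0.44 (SE 0.20 in the fit over all probe sets). Clec4d and the brighter Clec4n probe set carry the suffix _s_at, which marks probes that can match more than 1 transcript.

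Along the cluster the signals did not run one way. In the RefSeq gene order of GRCm38.p6 the neighbours are Clec4a3, Clec4a4, Clec4b1, Clec4a2, Clec4b2, Clec4n, Clec4d and Clec4e. Of the genes before Clec4n, 3 were tested and all had differences above 0: Clec4a3 at 0.19 (SE 0.15), Clec4b1 at 0.35 (SE 0.28) and Clec4a2, an inhibitory receptor, at 0.17 (SE 0.18). None passed the threshold in the limma fit. The 3 genes at the other end were those with differences below 0, and these were chosen as members, so the contrast along the cluster is a description.

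Promoter sequence of Clec4e, Clec4d, Clec7a and Tlr2, from RefSeq on GRCm38.p6, was searched because the viral cargo is a form of an AP-1 subunit. The search covered the 250 bases before the annotated start, on both strands. Cd14 was left out of this search, and no promoter sequence was at hand for the other members. The motifs were TGANTCA for AP-1, TGACGTCA for the related CRE site, TTGNNCAA for C/EBP, GAGGAA for the core of PU.1, the myeloid lineage factor, and GGGNNNNCCC for NF-kB. None of the 4 genes held TGANTCA in this window, which 6.75% of 32851 promoter windows hold, or TGACGTCA, held by 1.55%. Clec4e held TTGNNCAA (5.65% of windows), 66 to 59 bases before the start, on both strands since the pattern reads alike on either, and GAGGAA at 56 to 51 and, on the other strand, at 123 to 118. Clec4d and Clec7a held GAGGAA as well (23.3% of windows), and Tlr2 held GGGNNNNCCC (10.3% of windows), 172 to 163 bases before the start. A match is no evidence of binding, and a missing match covers only these letters in this window. The windows of the 2 cluster neighbours and of Tlr2 are shown 5′ to 3′ on the gene's strand, with motif matches in capitals: Clec4e at chr6:123289872-123290121 (minus strand), Clec4d at chr6:123261857-123262106 (plus strand) and Tlr2 at chr3:83841609-83841858 (minus strand).
Clec4e: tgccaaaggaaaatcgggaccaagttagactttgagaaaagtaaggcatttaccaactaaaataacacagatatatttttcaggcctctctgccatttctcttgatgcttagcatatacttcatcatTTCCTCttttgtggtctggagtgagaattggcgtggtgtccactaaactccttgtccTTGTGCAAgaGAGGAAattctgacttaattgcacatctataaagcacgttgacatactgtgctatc
Clec4d: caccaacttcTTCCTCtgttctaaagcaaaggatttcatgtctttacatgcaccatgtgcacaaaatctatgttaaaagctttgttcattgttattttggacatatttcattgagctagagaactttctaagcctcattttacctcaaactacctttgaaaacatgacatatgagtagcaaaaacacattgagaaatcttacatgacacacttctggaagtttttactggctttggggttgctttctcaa
Tlr2: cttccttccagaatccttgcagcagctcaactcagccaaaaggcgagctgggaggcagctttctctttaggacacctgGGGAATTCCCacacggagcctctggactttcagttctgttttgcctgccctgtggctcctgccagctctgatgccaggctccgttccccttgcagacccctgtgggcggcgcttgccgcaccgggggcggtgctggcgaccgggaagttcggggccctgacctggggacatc

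Clec7a (Dectin-1), the receptor for fungal beta-glucans, was spread over a wide range in the controls and a narrow one in the arrays labelled dn-cJun. The controls read 12.03, 11.05, 11.61, 12.17 and 11.999, and the arrays labelled dn-cJun 11.29, 11.34, 11.22, 11.43 and 11.23. Control 12 was the lowest of all 10 arrays, and the other 4 controls were above every array labelled dn-cJun. The SD was 0.46 in the controls and 0.09 in the arrays labelled dn-cJun (n = 5 each). The difference was -0.47 (SE 0.17), and -0.26 (SE 0.17) without controls 14 and 15. Without control 12 it was -0.65 (SE 0.10), which passed the threshold in limma. Among the neighbours of Clec7a in the natural killer gene region, Clec1b, a platelet and sinusoidal cell receptor, was at -0.38 (SE 0.12) and Clec1a at 0.22 (SE 0.23), and neither passed. Gabarapl1, an autophagy gene 3 places beyond Clec7a, passed as lower in limma at -0.43 (SE 0.07) and was noticed after its value was seen.

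Of the Toll-like receptors, Tlr2 read lower on average and Tlr4 read alike in both groups. Tlr2, the receptor for bacterial lipoproteins, read 9.45, 9.24, 9.76, 10.18 and 10.12 in controls 11 to 15 and 8.49, 9.59, 8.89, 9.46 and 9.05 in dn-cJun 16 to 20. Of the arrays labelled dn-cJun, 3 were below every control, while dn-cJun 17 and 19 lay within the control range. The difference was -0.66 (SE 0.22), and -0.39 (SE 0.22) without controls 14 and 15. Tlr4, the receptor for lipopolysaccharide, read 7.32 to 7.96 over the controls (median 7.43) and 7.21 to 7.81 over arrays labelled dn-cJun (median 7.47) on the brightest of its 4 probe sets. The groups covered the same range, with a difference of -0.02 (SE 0.18).

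The other Tlr4 probe sets differed in sign, each by less than its standard error. In order of mean signal, their differences were 0.06 (SE 0.29), 0.27 (SE 0.43) and -0.03 (SE 0.28). The dimmest 2 were below the olfactory receptor level on all 10 arrays and add little on Tlr4. Without controls 14 and 15, the brightest probe set was at 0.12 (SE 0.20), so the sign of the Tlr4 difference depends on those controls.

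Cd14, which hands lipopolysaccharide to Tlr4, varied more within the controls than between the groups. The controls read 9.33, 8.29, 9.01, 10.18 and 10.01, and the arrays labelled dn-cJun 8.74, 8.93, 8.55, 9.57 and 9.15. Controls 14 and 15 were the highest arrays of all, and control 12 was the lowest. The means were 9.36 ± 0.77 (SD, n = 5) and 8.99 ± 0.39 (SD, n = 5), a difference of -0.38 (SE 0.31). With controls 14 and 15 left out it was 0.11 (SE 0.25), and with control 12 left out it was -0.64 (SE 0.25), so the Cd14 difference depends on which controls are kept.

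Unc93b1, the chaperone that carries the nucleic acid-sensing Toll-like receptors to endosomes, had the smallest spread within the arrays labelled dn-cJun. The controls read 10.44, 10.35, 10.50, 11.02 and 10.78, and the arrays labelled dn-cJun 9.94, 9.97, 9.94, 10.11 and 9.94. All 5 controls were above all 5 arrays labelled dn-cJun, and the SD was 0.27 in the controls and 0.07 in the arrays labelled dn-cJun (n = 5 each). The difference was -0.64 (SE 0.12), a 1.56-fold lower signal, and -0.45 (SE 0.09) without controls 14 and 15.

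Toll-like receptors other than the members had mixed signs, and none passed in the limma fit: of 8 tested, 5 were above 0 and 3 below. Tlr3, the receptor for double-stranded RNA, was at -0.44 (SE 0.15, limma adjusted p = 0.181). Among the other nucleic acid sensors, Tlr7 was at -0.35 (SE 0.33) and Tlr13 at 0.17 (SE 0.16). The Tlr7 means of 6.68 (controls) and 6.33 (labelled dn-cJun) were both below the olfactory receptor level. Of the 9 matched receptors of this list, 4 were on average below that level. Tlr9 was at 0.65 (SE 0.34) and at 0.27 without controls 14 and 15, with a control mean of 6.35, below the olfactory receptor level.

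The activation markers both read lower, Cd83 by more than Cd86. Cd83, a surface protein of mature dendritic cells and activated B cells, read 8.16, 7.55, 7.47, 8.33 and 8.11 in controls 11 to 15 and 6.99, 6.68, 6.63, 7.01 and 6.03 in dn-cJun 16 to 20. No array labelled dn-cJun reached the lowest control. The means were 7.92 ± 0.39 (SD, n = 5) and 6.67 ± 0.40 (SD, n = 5), a difference of -1.26 (SE 0.24) or a 2.39-fold lower signal. Without controls 14 and 15 the difference was -1.04 (SE 0.28). In 3 of the 5 arrays labelled dn-cJun the Cd83 signal was below the olfactory receptor level, and in none of the controls.

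Cd86, a ligand that co-stimulates T cells through Cd28, overlapped between the groups on both probe sets. The brighter read 7.96, 7.43, 8.09, 8.56 and 8.42 in the controls and 7.67, 7.60, 7.29, 7.65 and 7.83 in the arrays labelled dn-cJun. Control 12 lay within the range of the arrays labelled dn-cJun, and the other 4 controls were above it. The difference was -0.48 (SE 0.20), and -0.21 (SE 0.20) without controls 14 and 15. The dimmer read 7.41 to 7.91 (median 7.70) and 7.04 to 7.68 (median 7.38), a difference of -0.24 (SE 0.18 in the fit over all probe sets).

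Over the 16 probe sets, 14 had differences below 0, and 2 passed as lower when every probe set was tested, Cd83 and Unc93b1, where 0.2% of all 45037 probe sets passed as lower and 0.329% in either direction. Groups did not overlap in 3 probe sets, beside 1.33% of all. Where a gene had several probe sets, they had the same sign for Clec4e, Clec4n and Cd86 and mixed signs for Tlr4.

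**Figure D2:**
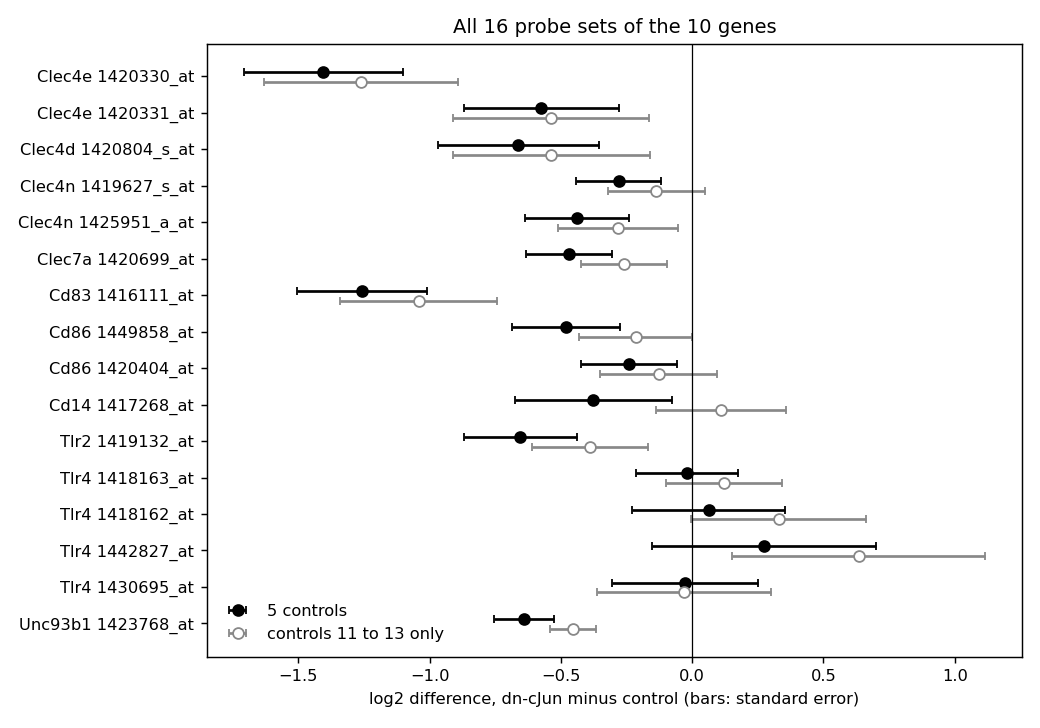
The horizontal axis is the log2 difference (labelled dn-cJun minus control) of each of the 16 probe sets, with standard errors from limma over all probe sets; filled points use all 5 controls and open points controls 11 to 13. The brighter probe set of Clec4e (-1.40) and Cd83 (-1.26) lie farthest from 0, and the open point of Cd14 (0.11) is on the other side of 0.

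Controls 14 and 15 carried part of the lower signals. Both were above the other 3 controls in 5 of the 10 genes (Cd86, Cd14, Tlr2, Tlr4 and Unc93b1), beside 16.8% of all genes tested. After subtraction of each group's mean, all 10 genes were above the mean in control 14 and 7 in control 15, and all 10 were below it in control 12. In the arrays labelled dn-cJun, 8 of 10 genes were above the group mean in dn-cJun 19. The labels give no reason for these deviations, though controls 14 and 15 also stood apart in the sex-linked genes Xist and Eif2s3y. The part of these deviations in the differences between the groups was not tested beyond the values without these controls.

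**Figure D3:**
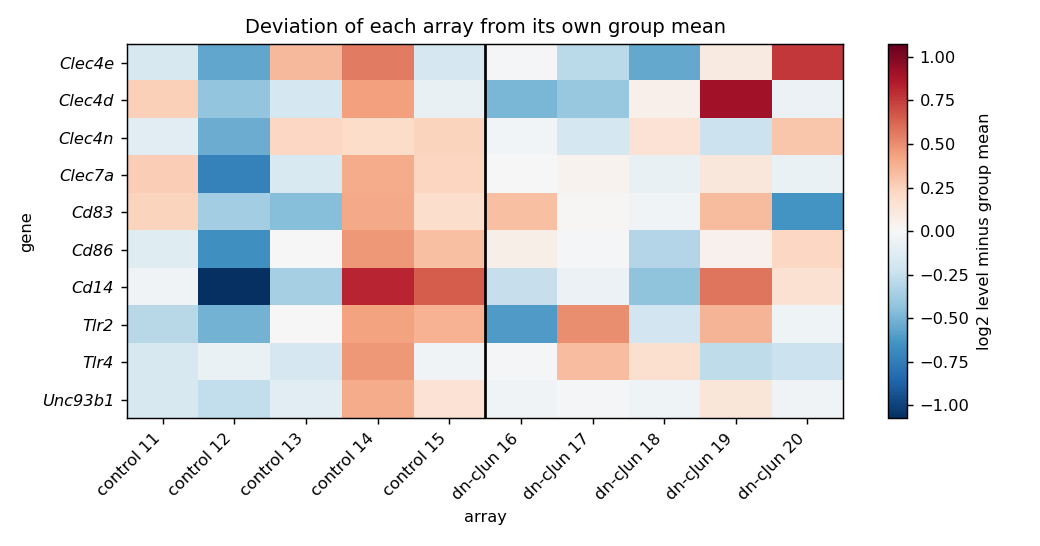
Colours give the log2 level of each gene on each array minus the mean of that array's group; the black line parts the groups. Control 12 is low and control 14 high for all 10 genes, with Cd14 at -1.07 and 0.82.

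Within the groups, the genes varied together to different degrees. Group-centred levels were correlated over 10 arrays for 45 pairs of genes, which leaves out the difference that chose the members; the arrays share their scaling. The median r was 0.49, and 41 of 45 pairs were above 0. Without controls 14 and 15 the median was 0.30 and 32 pairs were above 0. Over all 10 arrays, the median r of each member with the other 12735 genes was between -0.02 and 0.03. The 90th percentile of these r was 0.47 to 0.57, depending on the member. The number of other members above it ran from 1 (for Tlr4) to 6 (for Cd86). With an exact permutation test over the orders of arrays within groups, 12 pairs had a two-sided p for r under 0.05, and after Benjamini-Hochberg adjustment over the 45 pairs none did.

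Cd14 and Cd86 had the highest correlation of the 45 pairs, with r = 0.895 (exact permutation p = 0.00493, adjusted 0.0823) and Spearman's rho = 0.830 (exact permutation p = 0.0163, adjusted 0.147). It was 0.702 without controls 12 and 14, the arrays farthest from the median of Cd86, and 0.747 without controls 14 and 15. For Cd14 and Unc93b1, r was 0.880 (exact permutation p = 0.00549, adjusted 0.0823) and rho 0.842 (exact permutation p = 0.0147, adjusted 0.147). Leaving out controls 12 and 14 gave 0.788, and leaving out controls 14 and 15 gave 0.808.

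Clec4e followed this pattern only in part. With Cd86 its r was 0.733 (exact permutation p = 0.0155, adjusted 0.0969) and its rho 0.721 (exact permutation p = 0.0333, adjusted 0.214). That r was 0.625 without control 14 and dn-cJun 20 and 0.856 without controls 14 and 15. With Cd83, the other strongly lower gene, r was -0.159 (exact permutation p = 0.666, adjusted 0.769) and rho 0.115 (exact permutation p = 0.752, adjusted 0.847). Among the arrays labelled dn-cJun, Clec4e was highest and Cd83 lowest in dn-cJun 20. Without control 14 and dn-cJun 20 that r was 0.0886, and without controls 14 and 15 it was -0.452.

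Across all other 12735 genes, the group-centred patterns most like Clec4e over the 10 arrays were those of Rgs5, Akt1, 1700001G11Rik, Ptdss2 and Urb2, taken by Pearson's r alone, so no test is given. Their r ranged from 0.905 to 0.948 and their rho from 0.855 to 0.903. Of the members, Cd86 ranked 165th by this measure, Clec4n 602nd and Clec4d 3178th, so the adjacent receptor Clec4d was not among the genes nearest to Clec4e in pattern.

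Genes of the same pathways that are not members were read from lists written for this work, with earlier results of these data known. None passed the threshold in any of the 8 lists, where 0.777% of all genes passed in either direction. At an unadjusted limma p under 0.05 there were 21 of the 97 genes tested, beside 14.9% of all genes. On the deposited values 8 of these genes passed (Clec1b, Ptpn11, Tlr3, Acod1, Il1rn, Icam1, Marcks and Marcksl1), where 490 of all 12741 genes passed. Marcksl1 passed also with equal array medians, with array weights and without control 12, in all 4 of 23 alternatives. With its probe sets averaged it was at -0.32 (limma adjusted p = 0.352). Of the C-type lectin receptors other than the members, 8 of 11 tested were above 0, with a median of 0.07 that became -0.14 on the deposited values, where all genes had a median of -0.19. Of the 20 matched receptors of that list, 11 were on average below the olfactory receptor level. Clec1b had the smallest p (limma adjusted p = 0.158). Signalling genes of these receptors had 10 of 12 below 0 and a median of -0.12, and 7 of 12 and -0.02 without controls 14 and 15. Among them Fcer1g, the signalling chain of Clec4e, was at -0.20 and Syk at -0.12 (0.0065 without those controls), and Ptpn11, a phosphatase, had the smallest p (-0.17, SE 0.08, limma adjusted p = 0.327).

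Other Toll-like receptors had a median of 0.13 over 8 genes, and -0.05 on the deposited values. Their accessory proteins had 8 of 10 below 0 and a median of -0.08, which turned to 5 of 10 and 0.01 without controls 14 and 15, with the chaperone Hsp90b1 at -0.31 (SE 0.13, limma adjusted p = 0.298) and Ly96, the partner of Tlr4, at 0.05. Adaptors and kinases had 16 of 19 below 0 and a median of -0.11, and 12 of 18 and -0.09 without those controls. Myd88 was at -0.10 and Traf6, the ubiquitin ligase downstream of it, at -0.44 (SE 0.18, limma adjusted p = 0.276). Other innate sensors had 9 of 14 below 0 and a median of -0.08, and 7 of 14 and -0.02 without them. Nlrp6, a sensor of the inflammasome family, was at 0.43 (SE 0.11, limma adjusted p = 0.108) with groups that did not overlap.

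Lists nearer to the output of these receptors had lower medians. Cytokines and effectors had 8 of 10 below 0 and a median of -0.38, and 6 of 10 and -0.21 without controls 14 and 15. Of the 19 matched genes of that list, 11 were on average below the olfactory receptor level. Acod1, the itaconate-producing enzyme of activated macrophages, was -1.50 (SE 0.46, limma adjusted p = 0.154) and became -0.98 (SE 0.48) without those controls. Tnf was at -0.97 (SE 0.39, limma adjusted p = 0.262), with group means of 6.78 and 5.81, close to and below that level. Co-stimulatory and maturation genes had 12 of 13 below 0 and a median of -0.27, and without controls 14 and 15 they had 10 of 13 below 0 and a median of -0.27, with a different gene in the middle. Of the 18 matched genes of that list, 7 were on average below the olfactory receptor level. Marcksl1 had the smallest p of that list, at -0.71 (SE 0.16, limma adjusted p = 0.0605), and -0.55 without those controls. Icam1 went from -0.50 to -0.36, Cd40 from -0.47 to -0.30 and Cd80, another ligand of Cd28, from 0.21 to 0.0039, while Socs2 turned to 0.05 and Cd274 to 0.15.

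**Figure D4:**
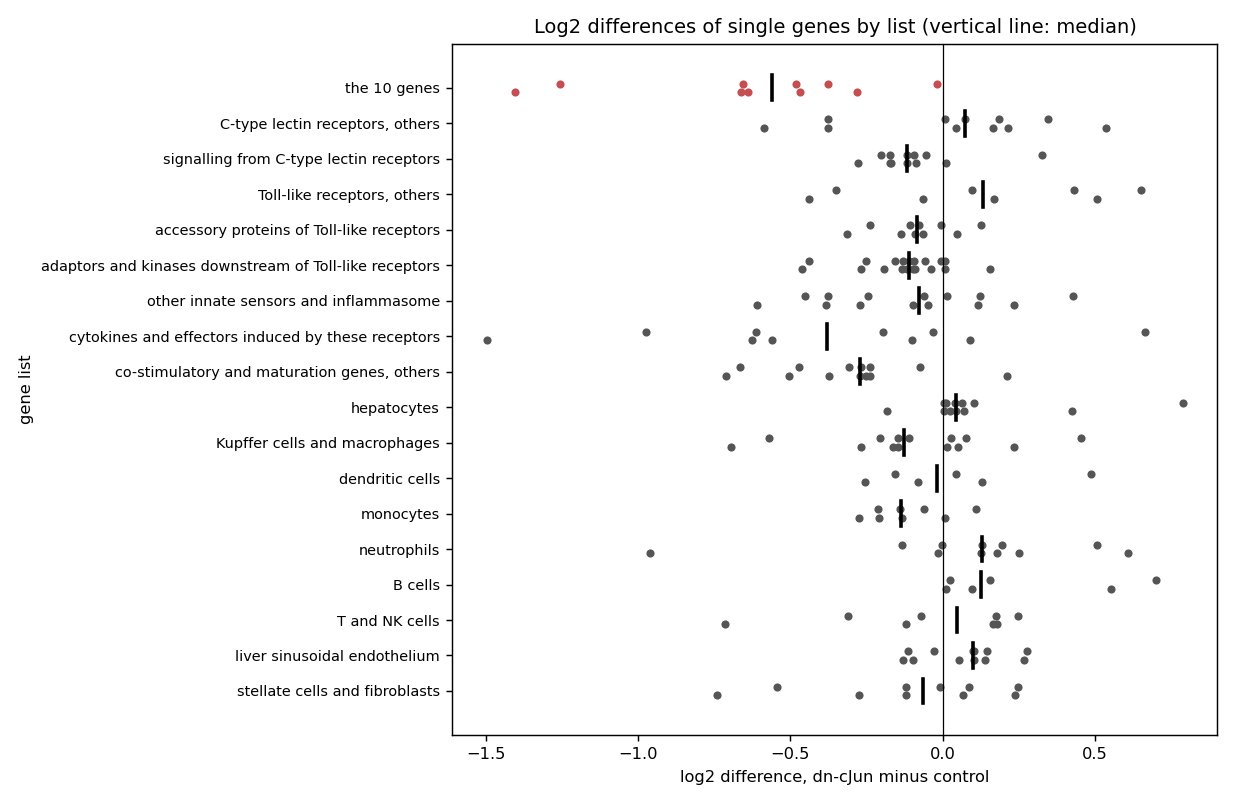
Each point is the log2 difference (labelled dn-cJun minus control) of 1 tested gene, grouped by list; the vertical lines mark list medians, and the 10 genes described here are in red. The red points were chosen with their values known and have a median of -0.56, while the medians of the other lists lie between -0.38 and 0.13. The other lists were also chosen with earlier results of these data known, so the contrast is a description.

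Markers of the cells that carry these receptors moved unevenly with the groups. In whole liver RNA, fewer cells of a type and less RNA per cell cannot be told apart. Of the Kupffer cell and macrophage markers, 2 of 14 tested passed as lower (0.432% of all genes did), Lyz2, the macrophage lysozyme, at -0.70 (SE 0.13, limma adjusted p = 0.0294) and Cd5l at -0.57 (SE 0.11, limma adjusted p = 0.0323), and 8 of 14 were below 0 with a median of -0.13. The 6 markers above 0 included Vsig4 (0.05), C1qa (0.03) and Mpeg1 (0.02), while Clec4f was at -0.15 and Adgre1 at -0.11. Summed intensity of the Kupffer cell and macrophage markers spanned 37596 to 56990 over the controls and 39107 to 45269 over arrays labelled dn-cJun. Controls 14 and 15 lay at 53901 to 56990 and controls 11 to 13 at 37596 to 53853. With those 2 controls left out, 5 of 14 were below 0 and the median over the list was 0.03. Lyz2 then still passed (-0.65, limma adjusted p = 0.0367) and Cd5l did not (-0.49, limma adjusted p = 0.105). With a term for those controls Lyz2 missed the threshold (limma adjusted p = 0.0514), and with 1 array left out Lyz2 passed in 3 and Cd5l in 1 of 10 fits.

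Of the 13 matched dendritic cell markers, 9 were on average below the olfactory receptor level, so the list is weakly measured. Of 6 tested, 3 were below 0, with a median of -0.02, and Flt3 had the smallest p (0.49, SE 0.39, limma adjusted p = 0.609). Summed intensity spanned 1477 to 2827 over the controls and 1650 to 2733 over arrays labelled dn-cJun. Monocyte markers had 6 of 8 below 0 and a median of -0.14, with summed intensity of 4770 to 9297 against 5864 to 6789; Plac8 was at -0.21 (SE 0.14, limma adjusted p = 0.504). Neutrophil markers varied most between arrays, from 4192 to 31721 over the controls and from 7802 to 28392 over arrays labelled dn-cJun. Their median difference was 0.13 over 11 genes, of which 7 were above 0, among them S100a8 (0.13) and S100a9 (0.18), and 4 below. Il1r2 had the smallest p, at -0.96 (SE 0.44, limma adjusted p = 0.330). Its means were 6.76 (controls) and 5.80 (labelled dn-cJun), close to and below the olfactory receptor level.

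Beside Kupffer cells and macrophages, no cell type gave a marker past the threshold in limma, and 9 of 73 markers had an unadjusted p under 0.05, beside 14.9% of all genes. On the deposited values the medians of the neutrophil, B cell, T and NK cell and endothelial lists were below 0, at -0.04, -0.08, -0.17 and -0.12. The 6 B cell markers tested were all above 0 with a median of 0.13, while without controls 14 and 15, 2 of 6 were below 0 and the median was 0.26. They summed at 998 to 1259 against 1256 to 1547, and Pax5 was at 0.70 (SE 0.25, limma adjusted p = 0.220). Of the 9 matched B cell markers, 5 were on average below the olfactory receptor level. T and NK cell markers had a median of 0.05 over 8 genes and sums of 1621 to 2660 against 1820 to 3214, with Cd8a at -0.72 (SE 0.43, limma adjusted p = 0.463). Sinusoidal endothelium had a median of 0.10 over 12 genes and sums of 10072 to 11852 against 10879 to 12448, with Fcgr2b at 0.28 (SE 0.09, limma adjusted p = 0.155). Stellate cells had a median of -0.06 over 10 genes and sums of 15161 to 19033 against 16031 to 17722, with Pdgfrb at -0.55 (SE 0.18, limma adjusted p = 0.186). Pdgfrb passed as lower with its probe sets averaged (-1.02, limma adjusted p = 0.0358), on the deposited values and without control 12. Among hepatocyte markers Pck1 had the smallest p, at 0.43 (SE 0.11, limma adjusted p = 0.0858), and 11 of 12 were above 0. The hepatocyte median was 0.04, but 0.33 with equal array medians and 0.17 on the deposited values, so it depends on the scaling. The part of these cell types in the lower receptor signals was not tested.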

How the data were processed

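Liver RNA of 10 mice was measured, 1 array each. Values were deposited as linear probe set intensity from Affymetrix arrays, per the labels' design text, and no software is named in the sources used here. In every column all values were whole multiples of 1 step per array (tolerance 0.02 steps), as a factor applied per array would give; no source used here states one. Array medians spanned 0.50 on the log2(intensity + 16) scale, and arrays were quantile normalized (limma 3.58.1, R 4.3.3). Control probe sets (64 of 45101) were left out. Symbols came from the platform annotation: 34945 probe sets had 1 symbol, 932 several and 9160 are unnamed here. Each gene was represented by the brightest of its probe sets on average, kept at or above the 40th percentile (6.06).

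Groups were compared with limma (lmFit, eBayes with trend), two-sided, with Benjamini-Hochberg adjustment over 12736 genes, and again over 45037 probe sets. Only the label of control 11 names Trizol for extraction. The arrays are separate mice per the labels, and their number limits the precision. The fit was also run on simulated data in which each gene was drawn independently. Those data hold no effects shared by the genes of an array, so that run says nothing on such effects. The members and the 17 lists (8 of pathways, 9 of cell types) were chosen with earlier results of these data known, as was the choice to leave out controls 14 and 15. Beside the members, the genes named are, for each list, up to 2 that passed with the smallest p, or else the gene with the smallest p, and the 5 genes most like Clec4e; other list genes were named after their values were seen. Alternatives concerned scaling, pseudocount, filter, probe set choice, variance model, threshold and arrays left out.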

Additional observations from a re-analysis of the deposited data

Results flagged for a closer look

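In 3 of 32 groups of 5 arrays, over the 16 probe sets, 1 array stood far from the other 4, with a gap to its nearest neighbour above Dixon's critical share of the range (0.71). Chance gives this in about 1 of 20 groups. The dimmer Clec4n probe set read 7.12 in dn-cJun 20, the lowest of its group, with the next array at 7.69. Tlr4 read 7.96 in control 14 on its brightest probe set, the highest of the controls, with the next at 7.46. Unc93b1 read 10.11 in dn-cJun 19, the highest of its group, with the next at 9.97.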

How the results depend on the processing

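No paired analysis was possible because the replicate numbers of the groups do not repeat. The count of genes past the threshold (99, of which 44 higher and 55 lower) became 8 at an adjusted p of 0.01 and 250 at 0.1, 490 on the deposited values (22 higher, 468 lower), 65 with equal array medians, 44 with probe sets of a gene averaged, 9 without the variance trend, 52 without controls 14 and 15 and 156 with a term for them. For probe sets (148) it became 24 and 320 at those thresholds, 404 on the deposited values, 20 without the trend and 61 without controls 14 and 15. With 1 array left out, genes numbered 13 (without dn-cJun 17) to 199 (without control 12) and probe sets 42 to 207, at the same arrays. The calls of Clec4e, Cd83 and Unc93b1 were all lost without the trend and without controls 14 and 15. That of Clec4e was also lost with the per-array factor undone, with no filter and with probe sets averaged, and those of Clec4e and Cd83 with a term for controls 14 and 15. Clec4e and Cd83 fell below the 60th percentile filter and were not tested there. The 3 calls held in 2, 3 and 3 of the 10 fits with 1 array left out. Their differences stayed below 0 throughout, within -1.68 to -0.95, -1.43 to -0.95 and -0.85 to -0.45. Cd14 turned to 0.11 without controls 14 and 15 and with a term for them, and Tlr4 to 0.12 in both and to 0.073 with its probe sets averaged. With 1 array left out, Tlr4 ran from -0.10 to 0.10 and Cd8a from -0.91 to 0.17, and Cd8a was 0.081 without probe sets that can match several transcripts. In the main fit Cd8a was read by such a probe set (-0.72, SE 0.43). It turned above 0 without control 11 (0.10, SE 0.21) and without dn-cJun 20 (0.17, SE 0.20). The brightest probe set was chosen anew in each fit, and which one stood for Cd8a there was not recorded. Of 662 values of named genes under an alternative, 581 kept direction and side of the threshold, 55 lost and 15 gained the call and 11 turned; the cause was not tested. Signals near the dim level, as for Clec4e in the arrays labelled dn-cJun, have no detection calls.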
